A study of Mus musculus with 12 samples.

Results

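The genes described here encode the proteins that bring fatty acids into muscle fibres and degrade them by beta-oxidation. The set holds 37 genes, taken by symbol for their known roles, and 37 of 37 were present among the 13244 genes measured in all 12 libraries. It was chosen with earlier results of these data known. Fatty acids cross the plasma membrane with the help of transport proteins, are bound by a small carrier protein in the cytosol and are joined to coenzyme A. Long chains then enter mitochondria as carnitine esters, a step that malonyl-CoA inhibits. Inside, the acyl-CoA passes repeatedly through dehydrogenation, hydration, a further dehydrogenation and thiolysis, and each turn releases acetyl-CoA and passes electrons to the respiratory chain. In skeletal muscle this route supplies much of the fuel at rest and in fasting, and many of its genes are known targets of the PPAR and ERR nuclear receptors.

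RNA was sequenced from the tibialis anterior, a shin muscle of mostly fast fibres, in 3 groups of 4 samples. KPC_UA samples came from C57BL/6J mice that carried KPC tumours and ate standard chow with ursolic acid, a plant triterpenoid. KPC samples came from mice of the same strain with the same tumours on standard chow alone. Sham samples came from tumour-free C57BL/6J mice on standard chow. KPC cells, a mouse pancreatic cancer line, had been injected in saline into the exposed pancreas, so the tumours grew from transplanted cells. The labels give neither the age of the mice nor whether each sample came from a separate mouse, and p-values therefore measure only the spread between these samples. The study asked whether dietary ursolic acid acts on the muscle of mice with pancreatic cancer.

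Libraries held 22306724 to 31966610 reads in the listed genes. Values are read counts divided by a size factor for each library, called normalised reads, and those printed per library are on a scale set over all 12 libraries. Markers of muscle fibres, led by Myh4, Acta1 and Ckm, summed to 3227600.0 to 3880450.0 normalised reads in KPC_UA, 3191650.0 to 3641990.0 in KPC and 3346510.0 to 3950850.0 in Sham libraries. These sums show skeletal muscle in each library and do not tell which muscle was taken. KPC replicates 1 and 4 stood apart from the other 10 libraries, at 121 and 50.6 on a first principal component that held 54.7% of the variance. KPC replicate 2 lay at -8.55, among the KPC_UA and Sham libraries, and KPC replicate 3 just above them. Those 8 libraries lay between -32.6 and -0.983. KPC_UA replicate 2, KPC replicate 4 and Sham replicate 1 gave relatively more reads to short transcripts: the shortest 20% of transcripts lay at a median of 0.26, 0.28 and 0.23 above the Sham mean on the log2 scale, and the longest 20% at -0.26, -0.23 and -0.25. Tendon markers (4 of 4 listed) summed to 553 to 2107 normalised reads in KPC_UA, 379 to 1346 in KPC and 2060.2 to 2938 in Sham libraries. Their median log2 fold change in KPC against Sham was -2.09, 0 of 4 were positive, and limma called 2 lower and DESeq2 4. Erythroid markers (6 of 6 listed) summed to 2486 to 15997 normalised reads in KPC_UA, 2789 to 10659 in KPC and 749 to 3445 in Sham libraries. Their median log2 fold change in KPC against Sham was 1.84, 6 of 6 were positive, and limma called 0 and DESeq2 4 higher. Markers of fibro-adipogenic cells (5 of 5 listed) summed to 2796 to 3544 normalised reads in KPC_UA, 2009 to 4334 in KPC and 3334 to 4815 in Sham libraries. In KPC against Sham, 0 of these 5 had a positive log2 fold change, with a median of -0.98, and limma called 1 lower (Mfap5, named after its value was seen) and DESeq2 3. No marker of these lists was at 0. The part of these in the results below was not tested, and in whole muscle fewer cells of a type and less RNA per cell cannot be told apart.

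Per length of transcript, the genes spanned a wide range of levels in every group. Fabp3, the muscle carrier protein for fatty acids, was the most abundant, at 8518, 10749 and 7508 normalised reads per kb on average in KPC_UA, KPC and Sham muscle. The least abundant was Acsl5, a long-chain acyl-CoA synthetase, at 25.5, 20.1 and 26.7 normalised reads per kb. Below Fabp3, the 5 next places in Sham muscle belonged to Acadm (4501 normalised reads per kb), Acadvl (4246), Etfa (4164), Acadl (3488) and Hadhb (3103), all of them mitochondrial matrix or inner membrane enzymes of the spiral or its electron carrier. Of the 36 pairs of neighbours in the Sham order, 34 overlapped between their libraries, so that their order is not beyond the spread. The pairs that did not overlap were Acsl6 above Acox3 and Acsl3 above Slc27a4, which set off a low group at the foot of the order: Acox3, Acsl4, Acsl3, Slc27a4, Ehhadh, Cpt1a and Acsl5. These 7 genes averaged 26.7 to 157 normalised reads per kb in Sham muscle, against 396 or more for the other 30. In KPC muscle 5 genes stood 5 or more places from their place in Sham. Acacb was at place 10 in KPC (18 in Sham), Cd36 at 9 (16 in Sham) and Eci2 at 18 (24 in Sham). Etfb was at place 22 in KPC (17 in Sham) and Acot13 at 21 (13 in Sham).

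**Figure D1:**
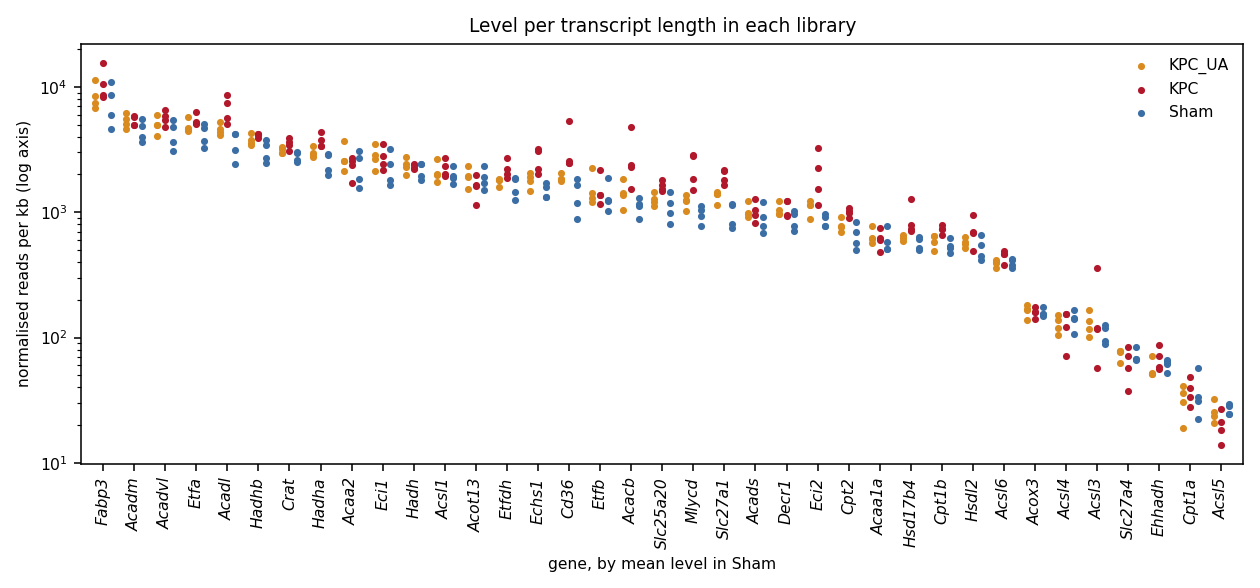
Level of each of the 37 genes per kb of its principal transcript (log axis, normalised reads per kb). Points are the 4 libraries of each group, with KPC_UA left, KPC in the middle and Sham right, and genes run from the highest to the lowest mean in Sham. Fabp3 averaged 7508 and Acsl5 26.7 normalised reads per kb in Sham muscle.

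The comparison of KPC with Sham muscle asked whether these genes differ in tumour-bearing mice. In KPC muscle the fatty acid transporter Slc27a1 rose 2.03-fold, and by DESeq2 a further gene of uptake (Cd36), the carnitine shuttle (Cpt1b, Cpt2), the spiral and its auxiliary enzymes (Acadl, Hadha, Echs1, Eci2) and malonyl-CoA control (Acacb, Mlycd) rose. Of the 37 genes, 33 had a positive log2 fold change, where 50.5% of all 13542 genes tested did, and their median was 0.33, against 0.0075 over all genes. The set was chosen with earlier results known, so such counts describe it in every comparison and are no test of the set. The test was limma on log2(normalised reads + 1) with Benjamini-Hochberg adjustment over all genes. It called 1 of the 37 higher (Slc27a1) and 0 lower, where 0.354% of all genes were called higher and 0.827% lower, and 14 of the 37 were higher and 0 lower at an unadjusted p under 0.05, against 12.1% and 12.4% of all genes. On the recovered reads, DESeq2 called 10 higher and 0 lower, against a background of 6.75% of genes called higher and 5% lower. By edgeR, 2 were higher, Slc27a1 and Mlycd, and 0 lower, where 0.501% and 0.891% of genes were. In 15 of the 37 each KPC library lay above each Sham library, which held for 10% of all genes, and in 0 each lay below, which held for 9.11%. Without KPC replicates 1 and 4, 34 of 37 fold changes were positive with a median of 0.36, and limma called 4, Slc27a1, Eci2, Acacb and Mlycd, where 1.84% of genes were called higher. With 1 library left out, limma called 3 of the 37 without KPC replicate 1, where 1.13% of genes were called higher, and 7 without KPC replicate 2, where 4.46% were. It called 0 of the 37, and 0% of genes higher, without KPC replicate 3, KPC replicate 4 or any one of Sham replicates 1 to 4.

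**Figure D2:**
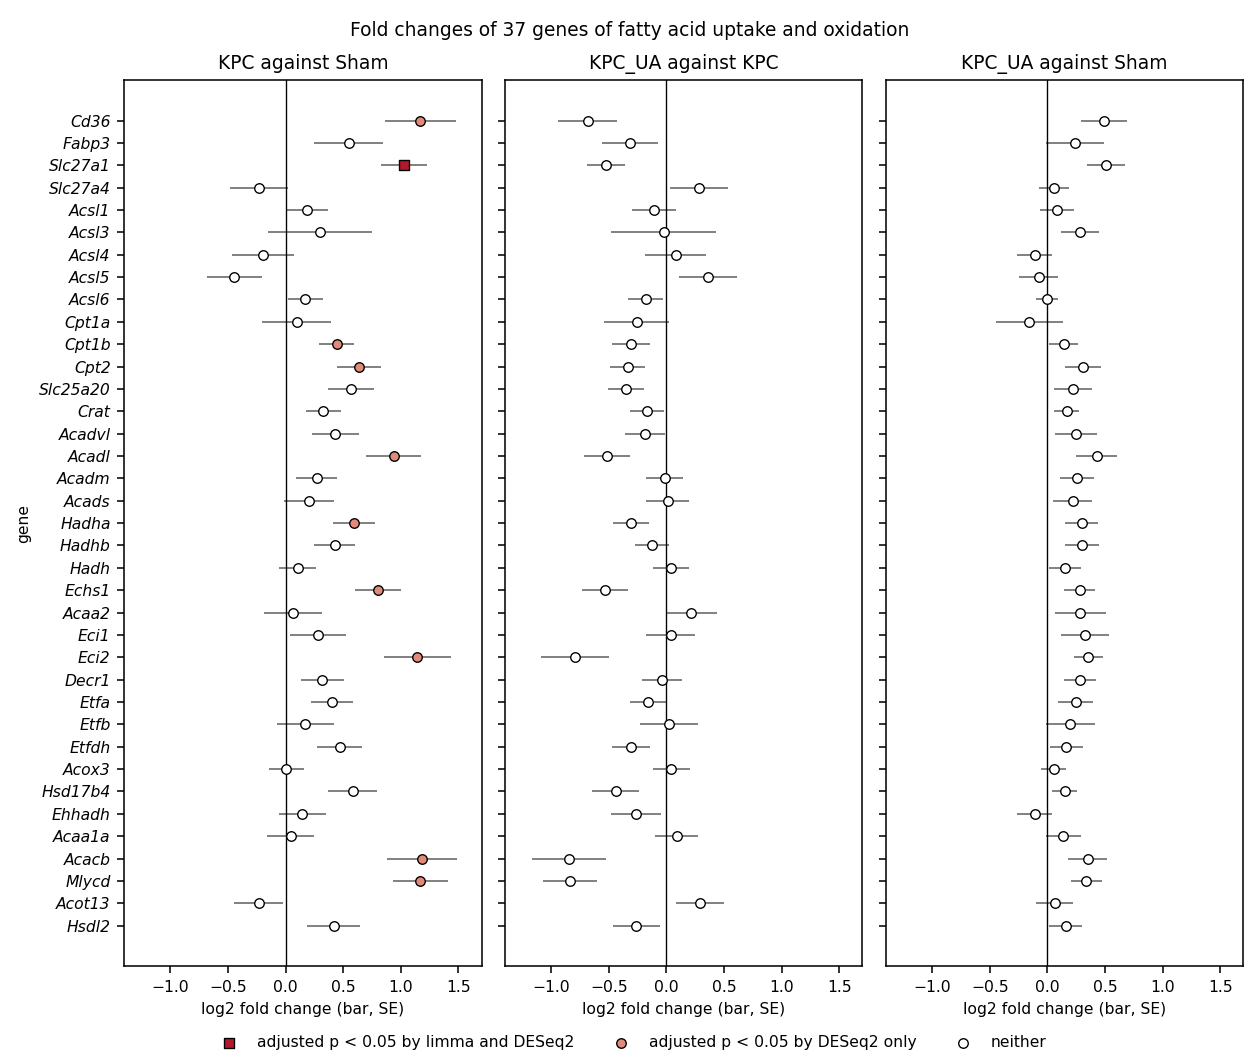
Log2 fold changes (points) with their SE (bars) for the 37 genes in each comparison, n = 4 libraries per group. In KPC against Sham, 33 of 37 points lie right of 0 and 10 are filled, and in both comparisons with KPC_UA no point is filled.

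By its median, the set lay above the Sham mean in each of the 4 KPC libraries. The median of the 37 genes relative to the Sham mean was 0.16, 0.42, 0.10 and 0.22 in KPC_UA replicates 1 to 4, 0.35, 0.26, 0.45 and 0.36 in KPC replicates 1 to 4 and 0.23, -0.28, -0.12 and 0.15 in Sham replicates 1 to 4, on the log2 scale. The genes above their Sham mean numbered 31, 29, 28 and 33 in KPC_UA replicates 1 to 4, 26, 33, 35 and 30 in KPC replicates 1 to 4 and 29, 5, 7 and 31 in Sham replicates 1 to 4, so that KPC replicate 1 held fewer such genes than Sham replicates 1 and 4. Of KPC replicates 2 and 3, which lay near the other groups on the first component, replicate 3 had the highest of the 4 KPC medians and replicate 2 the lowest. The groups overlapped, with KPC_UA replicate 2 among the KPC libraries and Sham replicate 1 close to the lowest KPC library. The number of the 37 genes that lay above all 4 Sham libraries was 5, 22, 10 and 13 in KPC_UA replicates 1 to 4 and 21, 20, 23 and 22 in KPC replicates 1 to 4. Of all genes with a mean of at least 10, 17.5%, 23.9%, 25.4% and 18.4% did so in KPC_UA replicates 1 to 4 and 40.9%, 25.9%, 30.3% and 35.9% in KPC replicates 1 to 4. KPC_UA replicate 2 held the highest value of its group for 21 of the genes, and Sham replicate 1 for 20. Both are among the libraries with more reads in short transcripts. KPC replicate 4, also one of these, held the highest value of its group for 8 genes and the lowest for 10, and KPC replicate 1 held the highest for 16 and the lowest for 13. Sham replicate 2 held the lowest value of its group for 26 genes, and KPC_UA replicate 3 for 19. Mb, the oxygen-binding protein myoglobin of oxidative fibres, was lowest in the same libraries of those groups: 85133, 110674, 41294 and 75704 normalised reads in KPC_UA replicates 1 to 4, 35986, 68922, 83173 and 82176 in KPC replicates 1 to 4 and 103020.0, 40293, 65759.6 and 82952 in Sham replicates 1 to 4. Mb was chosen after its values were seen, and its part in these values was not tested. With the trend on transcript length taken out of each library, an alternative chosen after the data were seen, the median in KPC against Sham was 0.33 and limma called 3 of the 37 (Slc27a1, Mlycd and Echs1), where 0.525% of genes were called higher.

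**Figure D3:**
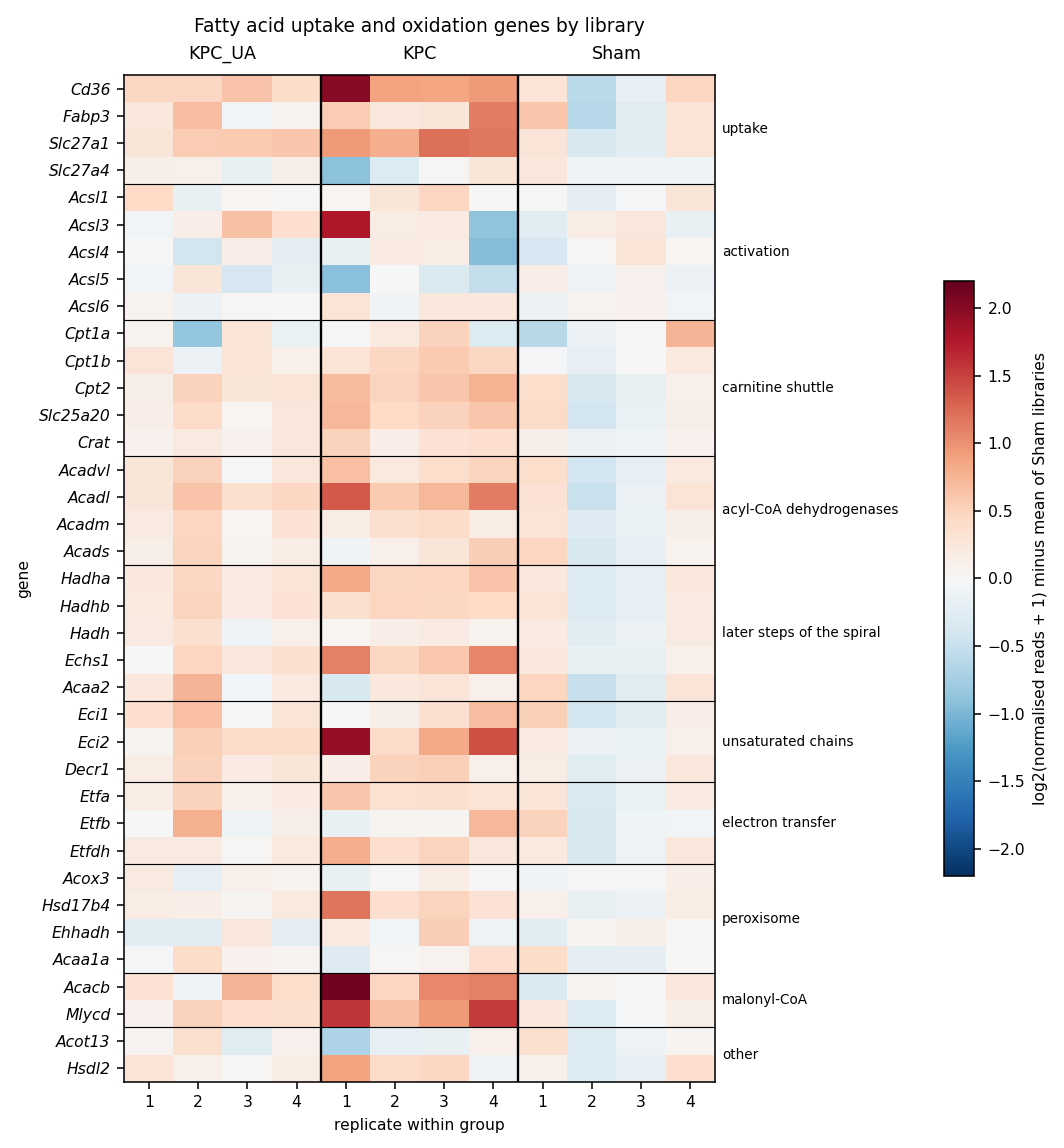
Difference of each library from the mean of the Sham libraries (colour, log2 scale) for the 37 genes (down, grouped by role) in 12 libraries (across, KPC_UA, KPC and Sham replicates 1 to 4). The KPC columns are red for Cd36, Slc27a1, Acadl, Eci2, Acacb and Mlycd, and Sham replicate 2 is blue for most genes.

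**Figure D4:**
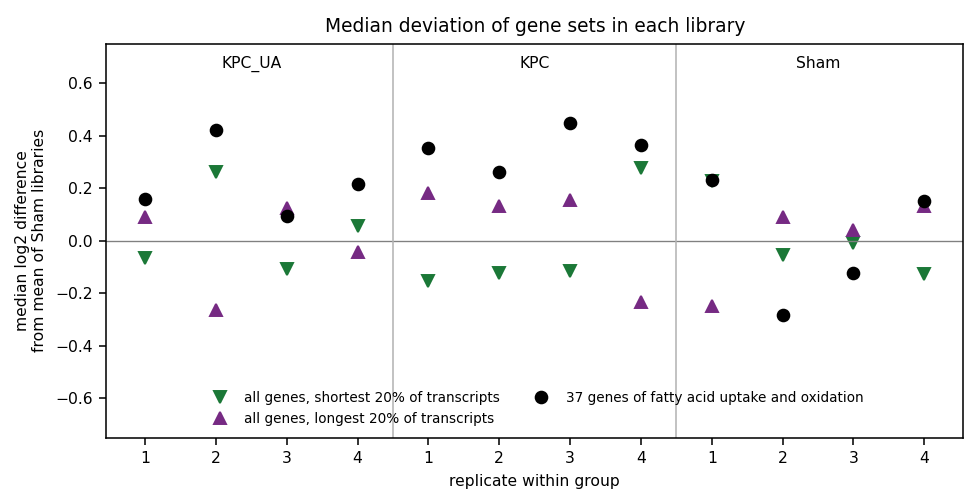
Median log2 difference from the Sham mean in each library (across) for the 37 genes (circles), the shortest 20% of all transcripts (down triangles) and the longest 20% (up triangles). The 37 genes lie at 0.35, 0.26, 0.45 and 0.36 in KPC replicates 1 to 4, while the triangles change places in KPC replicate 4.

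Among the uptake genes, Slc27a1 rose in KPC muscle by limma and DESeq2, Cd36 rose by DESeq2 alone, and Fabp3 and Slc27a4 passed by neither. Slc27a1 (chr8:71568882-71587302, plus strand, GRCm38), a transporter that also activates fatty acids, had 3196, 3877, 3936 and 4054 normalised reads in KPC_UA replicates 1 to 4, 5091, 4621, 6108 and 5902 in KPC replicates 1 to 4 and 3211, 2078, 2252 and 3263 in Sham replicates 1 to 4. Each KPC library lay above each KPC_UA and Sham library, and the lowest KPC_UA value lay within the Sham range. The log2 fold change in KPC against Sham was 1.02 with an SE of 0.20 (limma adjusted p = 0.0454, DESeq2 adjusted p = 0.000409), and 1.01 without KPC replicates 1 and 4. Leaving out any one of KPC replicates 3 and 4 and Sham replicates 1 to 4 took its limma adjusted p to between 0.0970 and 0.168, with fold changes of 0.91 to 1.12 over all 8 omissions. Against KPC, its log2 fold change in KPC_UA was -0.52 (SE 0.17, limma adjusted p = 0.382), and against Sham it was 0.51 (SE 0.16, limma adjusted p = 0.403).

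Cd36 (chr5:17781690-17888801, minus strand), the fatty acid translocase of the plasma membrane, had 6255, 6234, 7030.5 and 6006 normalised reads in KPC_UA replicates 1 to 4, 18299.7, 8376, 8330.3 and 8675 in KPC replicates 1 to 4 and 5624, 3026, 3990.4 and 6294 in Sham replicates 1 to 4. KPC replicate 1 held more than any other library, and the other 3 KPC libraries lay close together and above both other groups. The log2 fold change in KPC against Sham was 1.17 with an SE of 0.31 (limma adjusted p = 0.0901, DESeq2 adjusted p = 0.00983), so it passed by DESeq2 and not by limma, and it was 0.88 without KPC replicates 1 and 4. In KPC_UA it was -0.69 (SE 0.25, limma adjusted p = 0.382) against KPC and 0.49 (SE 0.20, limma adjusted p = 0.542) against Sham. These became -0.41 against KPC without KPC replicate 1 and 0.30 against Sham without Sham replicate 2. Cd36 is also made by capillary endothelium, fat cells and macrophages. Endothelial markers (6 of 6 listed) summed to 4588 to 7025 normalised reads in KPC_UA, 5358 to 6940.3 in KPC and 5253 to 6539 in Sham libraries. Adipocyte markers (5 of 6 in all tables) summed to 2119 to 3849 normalised reads in KPC_UA, 2179 to 3769 in KPC and 2711 to 4008 in Sham libraries. Macrophage markers (5 of 5) summed to 588 to 805 normalised reads in KPC_UA, 521 to 1106 in KPC and 441 to 710.1 in Sham libraries. All 3 sums overlapped between the groups, and no marker found in all tables was at 0. Among the endothelial markers, Cldn5 and Kdr passed by DESeq2 and not by limma, and they were chosen here after their values were seen. Cldn5, a tight junction protein, had a log2 fold change of 1.16 with an SE of 0.31 (limma adjusted p = 0.0866, DESeq2 adjusted p = 0.00806) in KPC against Sham and of -1.28 with an SE of 0.27 (limma adjusted p = 0.382, DESeq2 adjusted p = 0.00740) in KPC_UA against KPC. Kdr, a receptor for vascular growth factor, was at -1.06 with an SE of 0.31 (limma adjusted p = 0.108, DESeq2 adjusted p = 0.0410) in KPC against Sham. Of the adipocyte markers, 3 of 5 fell in KPC against Sham by limma (Cfd, Cidec and Plin1), and Fabp4, the most abundant, which capillaries also make, did not. DESeq2 called 4 of these 5 lower, and their median log2 fold change was -1.83, with 1 of 5 positive. The part of the endothelial, adipocyte and macrophage markers in the Cd36 values was not tested.

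Fabp3 had 6976, 9361, 5585 and 6119 normalised reads in KPC_UA replicates 1 to 4, 8671, 6864, 7080.0 and 12769.5 in KPC replicates 1 to 4 and 8929, 3774, 4894 and 7119 in Sham replicates 1 to 4. Both KPC replicate 4 and Sham replicate 1 were high, and the groups overlapped, with a log2 fold change of 0.55 with an SE of 0.30 (limma adjusted p = 0.269, DESeq2 adjusted p = 0.284) in KPC against Sham. Slc27a4, a related transporter, ranged over 254 to 315 normalised reads in KPC_UA, 153 to 343 in KPC and 267 to 339 in Sham libraries, and its log2 fold change in KPC against Sham was -0.23 (SE 0.25, limma adjusted p = 0.569).

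The window around the annotated start of a gene is where factors that act close to the promoter bind. Those of Slc27a1 and Cd36 are shown because these were the uptake genes that DESeq2 called higher in KPC against Sham. Each runs from 250 bases before to 50 bases after a start, 5′ to 3′, from RefSeq (GRCm38.p6), and capitals mark AGGTCA, the half-site of nuclear receptors, and CCAAT, on either strand. RefSeq gives 3 starts for Slc27a1, and the first is printed (chr8:71568621-71568920, plus strand), with Cd36 at chr5:17835847-17836146, minus strand. The Cd36 window lies inside the gene as annotated, whose first base on the minus strand is chr5:17888801. It therefore covers an internal start, and which start muscle uses was not tested.
Slc27a1: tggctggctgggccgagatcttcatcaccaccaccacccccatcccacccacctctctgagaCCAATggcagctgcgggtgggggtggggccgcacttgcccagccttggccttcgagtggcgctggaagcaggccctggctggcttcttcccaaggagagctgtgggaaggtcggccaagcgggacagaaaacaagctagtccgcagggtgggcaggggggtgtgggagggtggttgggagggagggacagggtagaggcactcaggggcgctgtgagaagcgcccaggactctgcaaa
Cd36: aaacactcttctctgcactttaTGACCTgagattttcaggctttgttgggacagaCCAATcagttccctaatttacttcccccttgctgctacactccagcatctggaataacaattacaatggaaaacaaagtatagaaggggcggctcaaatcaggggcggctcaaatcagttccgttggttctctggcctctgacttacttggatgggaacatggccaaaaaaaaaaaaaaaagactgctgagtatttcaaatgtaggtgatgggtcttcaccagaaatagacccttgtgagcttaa
The Cd36 window held AGGTCA 1 time and CCAAT 1 time, and the Slc27a1 window held CCAAT 1 time and AGGTCA 0 times.

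The acyl-CoA synthetases, which join fatty acids to coenzyme A, showed no common direction: 3 of 5 log2 fold changes in KPC against Sham were positive, and 0 of 5 passed by limma, DESeq2 or edgeR, or at an unadjusted p under 0.05. Acsl1, the main synthetase of muscle, had 10300.0, 6790.2, 7883 and 7647 normalised reads in KPC_UA replicates 1 to 4, 7828, 9134, 10524 and 7605 in KPC replicates 1 to 4 and 7638, 6575, 7358 and 9119.8 in Sham replicates 1 to 4. The groups overlapped throughout, and the log2 fold change in KPC against Sham was 0.19 with an SE of 0.18 (limma adjusted p = 0.505, DESeq2 adjusted p = 0.526). Acsl6, a synthetase known best from brain, had 1077, 936, 1043 and 1026 normalised reads in KPC_UA replicates 1 to 4, 1263, 975, 1204 and 1208 in KPC replicates 1 to 4 and 936, 1085, 1099.6 and 986 in Sham replicates 1 to 4, with a log2 fold change of 0.17 (SE 0.16, limma adjusted p = 0.489) in KPC against Sham and overlapping groups. Acsl5 had 108, 136, 87.5 and 101 normalised reads in KPC_UA replicates 1 to 4, 59.3, 113, 89.8 and 78.1 in KPC replicates 1 to 4 and 125, 104, 121 and 103 in Sham replicates 1 to 4. Low in KPC replicates 1 and 4 and within the Sham range in KPC replicate 2, it had a log2 fold change of -0.44 with an SE of 0.24 (limma adjusted p = 0.266, DESeq2 adjusted p = 0.279). Acsl3, found on lipid droplets, spread widely in KPC muscle. KPC replicate 1 held 1411 normalised reads and KPC replicate 4 held 224, while the other 10 libraries lay between 351 and 654. Acsl4, which favours arachidonate, averaged 674 ± 110.3 normalised reads in KPC_UA, 662 ± 207 in KPC and 733 ± 131 in Sham muscle (SD, n = 4 each). The number of Acsl1 reads per Acsl6 read, which does not depend on the scaling of a library, was 9.55, 7.25, 7.55 and 7.45 in KPC_UA replicates 1 to 4, 6.19, 9.36, 8.74 and 6.29 in KPC replicates 1 to 4 and 8.15, 6.06, 6.69 and 9.24 in Sham replicates 1 to 4. The log2 ratio differed by 0.016 in KPC against Sham (two-sided exact permutation p = 0.886) and by 0.073 in KPC_UA against KPC (exact permutation p = 0.686). In all, 12 such tests were made on 4 ratios in 3 comparisons, each with an adjusted p of 1, and the smallest p that 4 against 4 libraries allow is 0.0286.

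In the carnitine shuttle, 5 of 5 log2 fold changes in KPC against Sham were positive, with a median of 0.44. For Cpt1b, Cpt2, Slc25a20 and Crat each KPC library lay above each Sham library, and DESeq2 called Cpt1b and Cpt2, while limma called 0 of the 5. Cpt1b, the muscle form of carnitine palmitoyltransferase 1 and the step that malonyl-CoA blocks, had 1882, 1408, 1877 and 1675 normalised reads in KPC_UA replicates 1 to 4, 1901, 2123, 2303 and 2121 in KPC replicates 1 to 4 and 1496, 1367, 1561 and 1794 in Sham replicates 1 to 4. Its log2 fold change in KPC against Sham was 0.44 with an SE of 0.16 (limma adjusted p = 0.141, DESeq2 adjusted p = 0.0491). In KPC_UA it was -0.31 (SE 0.16, limma adjusted p = 0.391) against KPC, each KPC_UA library lying below each KPC library. Of the 3372 exonic bases of Cpt1b (chr15:89416405-89425863, minus strand), 2744 are shared with Gm44502, a read-through gene on the same strand, so its count is uncertain. Cpt1a, the form known from liver, had 155, 81.3, 179 and 133 normalised reads in KPC_UA replicates 1 to 4, 145, 171, 209.5 and 120.2 in KPC replicates 1 to 4 and 96.2, 135, 146 and 248 in Sham replicates 1 to 4, and its log2 fold change of 0.10 with an SE of 0.30 (limma adjusted p = 0.859, DESeq2 adjusted p = 0.950) lay within the spread. Per length, Cpt1a made up 3.66% to 8.49% of the sum of Cpt1a and Cpt1b over the 12 libraries. The log2 ratio of Cpt1a to Cpt1b differed by -0.35 in KPC against Sham (exact permutation p = 0.257). Cpt2, which turns the carnitine ester back into acyl-CoA in the matrix, had 1660.1, 2152, 1819 and 1852 normalised reads in KPC_UA replicates 1 to 4, 2438, 2117, 2318 and 2576 in KPC replicates 1 to 4 and 1987, 1190.3, 1354 and 1634 in Sham replicates 1 to 4. KPC libraries lay above all Sham libraries, and KPC_UA replicate 2 lay in the KPC range and the other 3 KPC_UA libraries in the Sham range. Its log2 fold change in KPC against Sham was 0.64 with an SE of 0.19 (limma adjusted p = 0.108, DESeq2 adjusted p = 0.0347). Slc25a20, the carrier that exchanges acylcarnitine for carnitine, averaged 2259 ± 251 normalised reads in KPC_UA, 2882 ± 262 in KPC and 1980.3 ± 495 in Sham muscle (SD, n = 4 each), with log2 fold changes of 0.57 (SE 0.20, limma adjusted p = 0.140) in KPC against Sham and -0.35 (SE 0.16, limma adjusted p = 0.382) in KPC_UA against KPC. Crat, the acetyltransferase of short chains, averaged 13151 ± 686 normalised reads in KPC_UA, 14840.4 ± 1529.8 in KPC and 11780.1 ± 1040.4 in Sham muscle, and its log2 fold change in KPC against Sham was 0.33 (SE 0.15, limma adjusted p = 0.217).

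The 4 acyl-CoA dehydrogenases open each turn of the spiral. Of these, 4 of 4 log2 fold changes in KPC against Sham were positive, and the long-chain enzyme Acadl had the largest. Acadl had 7849, 10014, 8294 and 8883 normalised reads in KPC_UA replicates 1 to 4, 16503, 9708, 10757 and 14211 in KPC replicates 1 to 4 and 8125, 4644, 5977 and 7989 in Sham replicates 1 to 4. Each KPC library lay above each Sham library, and KPC replicates 1 and 4 were the highest. Its log2 fold change in KPC against Sham was 0.94 with an SE of 0.24 (limma adjusted p = 0.0846, DESeq2 adjusted p = 0.00938), and 0.65 without those 2 libraries. In KPC_UA it was -0.52 (SE 0.20, limma adjusted p = 0.382) against KPC and 0.43 (SE 0.18, limma adjusted p = 0.553) against Sham. Acadvl, the very-long-chain enzyme of the inner membrane, had 10772, 12818, 8715 and 10700.4 normalised reads in KPC_UA replicates 1 to 4, 14185, 10374, 11734 and 12653 in KPC replicates 1 to 4 and 11754, 6718, 7908 and 10445 in Sham replicates 1 to 4. The groups overlapped, with a log2 fold change of 0.43 with an SE of 0.21 (limma adjusted p = 0.225, DESeq2 adjusted p = 0.226) in KPC against Sham. Its exons share 1151 bases with Dvl2 on the opposite strand, and the sources used here do not say whether reads were counted by strand. The medium-chain enzyme Acadm averaged 10908 ± 1373 normalised reads in KPC_UA, 11016 ± 1003 in KPC and 9214 ± 1708 in Sham muscle (SD, n = 4 each), with a log2 fold change of 0.27 (SE 0.18, limma adjusted p = 0.348) in KPC against Sham. The short-chain enzyme Acads averaged 1904 ± 259 normalised reads in KPC_UA, 1905 ± 359 in KPC and 1672 ± 431 in Sham muscle, with a log2 fold change of 0.20 (SE 0.22, limma adjusted p = 0.569) in KPC against Sham. Neither passed by DESeq2 or edgeR.

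Of the 5 genes of the later steps, Hadha, Hadhb and Echs1 did not overlap between KPC and Sham, and DESeq2 called Hadha and Echs1. Hadh and Acaa2 overlapped. Hadha and Hadhb encode the alpha and beta subunits of the mitochondrial trifunctional protein, which performs the last 3 steps on long chains. Hadha (chr5:30118304-30155162, minus strand) had 11556, 13516, 11174 and 11944 normalised reads in KPC_UA replicates 1 to 4, 17561, 13428, 13651 and 15183 in KPC replicates 1 to 4 and 11579, 7942, 8712 and 11628 in Sham replicates 1 to 4, with a log2 fold change of 0.59 with an SE of 0.18 (limma adjusted p = 0.117, DESeq2 adjusted p = 0.0395) in KPC against Sham. Hadhb (chr5:30155248-30184593, plus strand) had 7302, 8767, 7065 and 7768 normalised reads in KPC_UA replicates 1 to 4, 8001, 8655, 8556 and 8516 in KPC replicates 1 to 4 and 7701, 5065, 5555 and 7101 in Sham replicates 1 to 4. It was even over the KPC libraries, where Hadha was highest in replicates 1 and 4, and its log2 fold change was 0.43 with an SE of 0.18 (limma adjusted p = 0.177, DESeq2 adjusted p = 0.134). Hadha reads per Hadhb read numbered 1.58, 1.54, 1.58 and 1.54 in KPC_UA replicates 1 to 4, 2.19, 1.55, 1.60 and 1.78 in KPC replicates 1 to 4 and 1.50, 1.57, 1.57 and 1.64 in Sham replicates 1 to 4. KPC replicate 1 was the highest and KPC replicate 4 the next, and the other 10 libraries lay within 1.50 to 1.64. The log2 ratio differed by 0.17 in KPC against Sham (exact permutation p = 0.200) and by -0.18 in KPC_UA against KPC (exact permutation p = 0.114). Without KPC replicate 1 these differences were 0.064 and -0.072.

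The 2 subunit genes lie head to head on chromosome 5 and leave in opposite directions from a shared stretch. The Hadhb window (RefSeq, GRCm38.p6, chr5:30155003-30155302, plus strand, 250 bases before to 50 after its start) is shown for this reason, and capitals mark the 228 bases that the Hadha window on the minus strand also covers.
Hadhb: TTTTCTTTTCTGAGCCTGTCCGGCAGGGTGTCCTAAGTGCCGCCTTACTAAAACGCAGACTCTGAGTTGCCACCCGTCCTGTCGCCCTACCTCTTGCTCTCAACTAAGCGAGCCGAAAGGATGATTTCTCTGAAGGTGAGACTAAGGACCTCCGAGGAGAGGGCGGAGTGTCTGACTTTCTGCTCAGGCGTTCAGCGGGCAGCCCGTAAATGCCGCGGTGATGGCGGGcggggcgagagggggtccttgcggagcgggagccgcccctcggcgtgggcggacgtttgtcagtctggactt
AGGTCA and CCAAT were found in neither window, and GGGCGG, the GC box, in both. The Hadha window (chr5:30154931-30155230) is set on a start inside the gene as annotated, whose first base on the minus strand is chr5:30155162. Part of the capitals therefore lies within Hadha, and which start muscle uses was not tested.

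Echs1, the hydratase of short chains, had 2307, 3202, 2741 and 2948 normalised reads in KPC_UA replicates 1 to 4, 4982, 3149.8, 3473 and 4817 in KPC replicates 1 to 4 and 2683, 2054, 2043 and 2475 in Sham replicates 1 to 4. KPC replicates 1 and 4 were the highest of the 12 libraries, and KPC replicates 2 and 3 also lay above all Sham libraries. In KPC against Sham its log2 fold change was 0.81 with an SE of 0.20 (limma adjusted p = 0.0785, DESeq2 adjusted p = 0.00554), and 0.53 without KPC replicates 1 and 4. In KPC_UA it was -0.53 (SE 0.20, limma adjusted p = 0.382) against KPC. Hadh, the hydroxyacyl-CoA dehydrogenase of shorter chains, averaged 4238 ± 549 normalised reads in KPC_UA, 4115 ± 175 in KPC and 3846 ± 582 in Sham muscle (SD, n = 4 each), with a log2 fold change of 0.11 (SE 0.16, limma adjusted p = 0.693) in KPC against Sham. Acaa2, the matrix thiolase, averaged 4150.2 ± 1017 normalised reads in KPC_UA, 3555 ± 657 in KPC and 3477 ± 1086 in Sham muscle, with a log2 fold change of 0.063 (SE 0.25, limma adjusted p = 0.889) in KPC against Sham.

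Among the enzymes for unsaturated chains, Eci2 had the largest fold change. Eci2, an enoyl-CoA isomerase, had 1546, 2139, 1987 and 1974 normalised reads in KPC_UA replicates 1 to 4, 5702, 1990.2, 2653 and 3924 in KPC replicates 1 to 4 and 1677, 1354, 1347 and 1605 in Sham replicates 1 to 4. Its KPC values spread from near the KPC_UA level in replicate 2 to far above it in replicate 1, and each lay above all Sham libraries. The log2 fold change in KPC against Sham was 1.14 with an SE of 0.29 (limma adjusted p = 0.0846, DESeq2 adjusted p = 0.00355), and 0.63 without KPC replicates 1 and 4. In KPC_UA it was -0.79 (SE 0.30, limma adjusted p = 0.382) against KPC and 0.36 (SE 0.13, limma adjusted p = 0.477) against Sham. Eci1, an isomerase of the mitochondrial matrix, averaged 3169 ± 634 normalised reads in KPC_UA, 3100.3 ± 674 in KPC and 2583 ± 784 in Sham muscle (SD, n = 4 each), with a log2 fold change of 0.28 (SE 0.24, limma adjusted p = 0.463) in KPC against Sham. Decr1, the dienoyl-CoA reductase, averaged 3101 ± 352 normalised reads in KPC_UA, 3208 ± 493 in KPC and 2573 ± 434 in Sham muscle, with a log2 fold change of 0.32 (SE 0.19, limma adjusted p = 0.298) in KPC against Sham. Neither passed by DESeq2 or edgeR. The electron transfer flavoprotein, made of Etfa and Etfb, carries electrons to Etfdh, which hands them to ubiquinone. Etfdh had 4303, 4309, 3798 and 4359 normalised reads in KPC_UA replicates 1 to 4, 6489.8, 4829, 5249 and 4428 in KPC replicates 1 to 4 and 4366, 2951, 3449.9 and 4434 in Sham replicates 1 to 4, and KPC replicate 4 lay just below Sham replicate 4. Its log2 fold change was 0.47 with an SE of 0.19 (limma adjusted p = 0.180, DESeq2 adjusted p = 0.135) in KPC against Sham and -0.31 (SE 0.17, limma adjusted p = 0.393) in KPC_UA against KPC. Etfa averaged 6780.5 ± 872 normalised reads in KPC_UA, 7572 ± 765 in KPC and 5796 ± 1142 in Sham muscle (SD, n = 4 each), with a log2 fold change of 0.40 (SE 0.18, limma adjusted p = 0.210) in KPC against Sham and no overlap between these groups. Etfb averaged 1376 ± 424 normalised reads in KPC_UA, 1355 ± 403 in KPC and 1196 ± 323 in Sham muscle, with a log2 fold change of 0.17 (SE 0.25, limma adjusted p = 0.673), but its exons share bases with Gm45233 on the same strand, so its count is uncertain.

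The 4 peroxisomal genes, whose enzymes shorten very long and branched chains, had a median log2 fold change of 0.094 in KPC against Sham, and 0 of 4 passed by limma, DESeq2 or edgeR (1 at an unadjusted limma p under 0.05). That one was Hsd17b4, the D-bifunctional protein, which had 1689.9, 1671, 1588 and 1760.2 normalised reads in KPC_UA replicates 1 to 4, 3414, 1966, 2124 and 1889 in KPC replicates 1 to 4 and 1647, 1349, 1394 and 1705 in Sham replicates 1 to 4. KPC replicate 1 was far above the other 3 KPC libraries, which still lay above all Sham libraries. For Hsd17b4 the log2 fold change was 0.58 with an SE of 0.21 (limma adjusted p = 0.147, DESeq2 adjusted p = 0.0707), and 0.43 without KPC replicates 1 and 4. At its lowest over the further settings run, its adjusted p fell just under 0.05. Acox3, an oxidase of branched chains, averaged 648 ± 70.4 normalised reads in KPC_UA, 630.3 ± 57.4 in KPC and 625 ± 46.7 in Sham muscle (SD, n = 4 each). Ehhadh, the L-bifunctional protein, averaged 168 ± 30.4 normalised reads in KPC_UA, 203 ± 43.4 in KPC and 181 ± 18.8 in Sham muscle. Acaa1a, a peroxisomal thiolase, averaged 1137 ± 158 normalised reads in KPC_UA, 1078 ± 197 in KPC and 1046 ± 219 in Sham muscle. The log2 fold changes of these 3 genes in KPC against Sham were 0.0071, 0.14 and 0.043, each smaller than its SE. In the remaining pair, Hsdl2, a dehydrogenase-like protein of peroxisomes, had 1648, 1445, 1361 and 1499.9 normalised reads in KPC_UA replicates 1 to 4, 2459, 1780.3, 1820.2 and 1272 in KPC replicates 1 to 4 and 1437, 1083, 1177 and 1728 in Sham replicates 1 to 4, and its log2 fold change in KPC against Sham was 0.42 with an SE of 0.23 (limma adjusted p = 0.279, DESeq2 adjusted p = 0.260). Acot13, a thioesterase that splits acyl-CoA, averaged 1396 ± 242 normalised reads in KPC_UA, 1150.5 ± 247 in KPC and 1343 ± 262 in Sham muscle (SD, n = 4 each), with a log2 fold change of -0.23 (SE 0.21, limma adjusted p = 0.496).

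Both genes among the 37 whose products make or remove malonyl-CoA, the inhibitor of the carnitine step, were higher in KPC muscle by DESeq2. They did not pass the limma threshold, and their products act in opposite directions. Acacb (chr5:114146535-114250761, plus strand), the carboxylase that makes malonyl-CoA beside the outer mitochondrial membrane, had 12130.3, 9172, 16284 and 12610.5 normalised reads in KPC_UA replicates 1 to 4, 42045, 13512, 20033 and 20872 in KPC replicates 1 to 4 and 7793, 10168, 9783 and 11342 in Sham replicates 1 to 4. KPC replicate 1 held the most, and KPC replicate 2 lay within the KPC_UA range but above all Sham libraries. Acacb had a log2 fold change of 1.19 with an SE of 0.31 (limma adjusted p = 0.0850, DESeq2 adjusted p = 0.00398) in KPC against Sham. Mlycd (chr8:119394878-119411102, plus strand), the decarboxylase that removes malonyl-CoA, had 2169.8, 2916, 2649 and 2598 normalised reads in KPC_UA replicates 1 to 4, 6066, 3175, 3913 and 5955 in KPC replicates 1 to 4 and 2394, 1656, 1973 and 2219.7 in Sham replicates 1 to 4. Each KPC library lay above each KPC_UA and each Sham library. Mlycd had a log2 fold change of 1.17 with an SE of 0.24 (limma adjusted p = 0.0501, DESeq2 adjusted p = 0.000329), and edgeR gave an adjusted p of 0.0471. Without KPC replicates 1 and 4 the log2 fold changes were 0.77 for Acacb and 0.79 for Mlycd, with limma adjusted p of 0.0422 and 0.0208. In KPC_UA against KPC they were -0.84 with an SE of 0.32 (limma adjusted p = 0.382, DESeq2 adjusted p = 0.156) and -0.84 with an SE of 0.23 (limma adjusted p = 0.382, DESeq2 adjusted p = 0.0594). In KPC_UA against Sham they were 0.35 (SE 0.17, limma adjusted p = 0.661) and 0.34 (SE 0.14, limma adjusted p = 0.542). The count of Acacb reads per Mlycd read was 5.59, 3.14, 6.14 and 4.85 in KPC_UA replicates 1 to 4, 6.93, 4.26, 5.12 and 3.50 in KPC replicates 1 to 4 and 3.25, 6.14, 4.96 and 5.11 in Sham replicates 1 to 4. The 3 groups covered one another, and the log2 ratio differed by 0.016 in KPC against Sham (exact permutation p = 0.943) and by -0.0035 in KPC_UA against KPC (exact permutation p = 1). With these SDs of 0.42 in KPC and 0.39 in Sham on the log2 scale, a modest change of the ratio would not have been detectable.

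**Figure D5:**
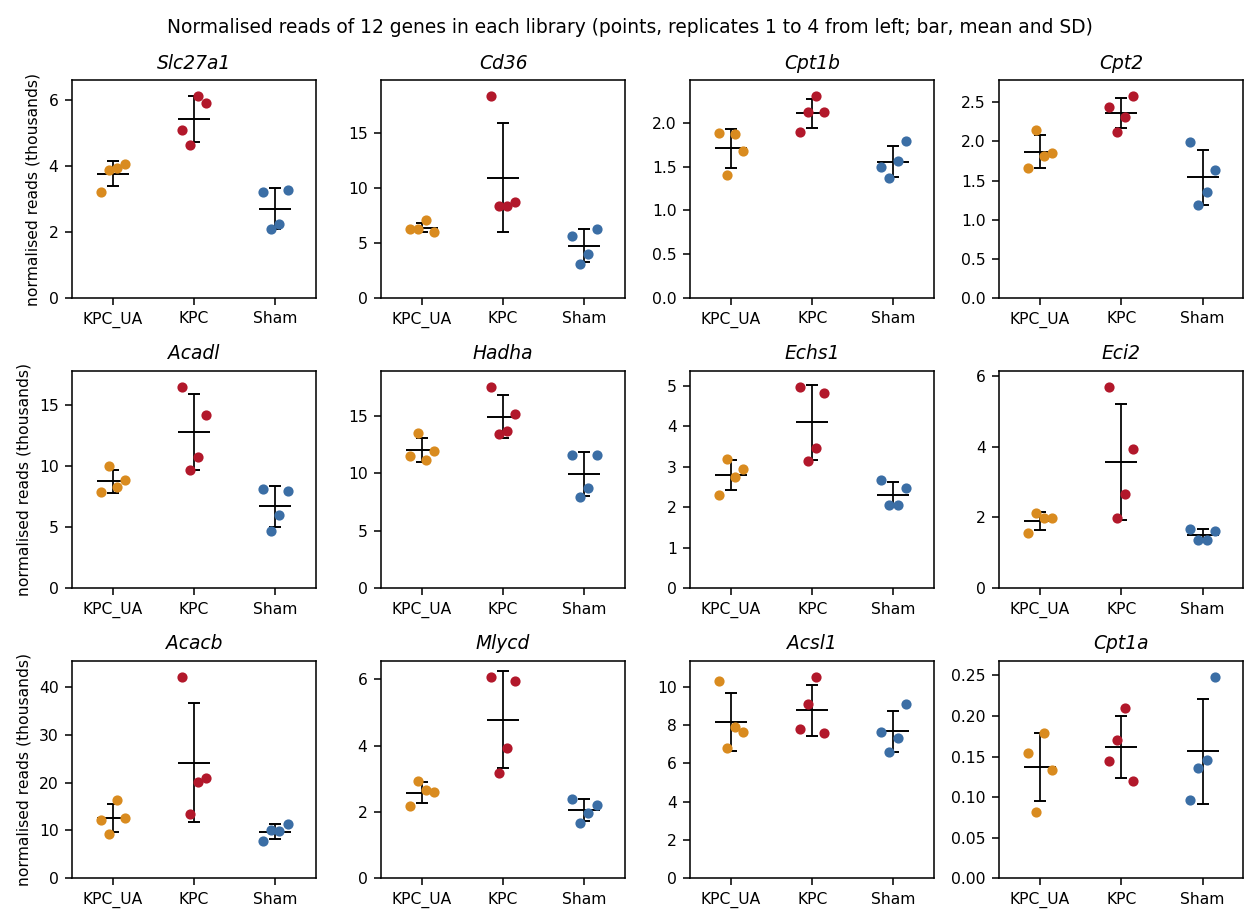
Normalised reads (linear axis from 0) of 12 genes in KPC_UA, KPC and Sham libraries, with points for replicates 1 to 4 from left and bars for mean and SD. KPC points lie above all Sham points in the panels from Slc27a1 to Mlycd and overlap them for Acsl1 and Cpt1a.

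The windows around the starts of Mlycd (chr8:119394644-119394943, plus strand) and Acacb (chr5:114165268-114165567, plus strand) are shown because these genes had similar fold changes (RefSeq, GRCm38.p6, 5′ to 3′, capitals as above).
Mlycd: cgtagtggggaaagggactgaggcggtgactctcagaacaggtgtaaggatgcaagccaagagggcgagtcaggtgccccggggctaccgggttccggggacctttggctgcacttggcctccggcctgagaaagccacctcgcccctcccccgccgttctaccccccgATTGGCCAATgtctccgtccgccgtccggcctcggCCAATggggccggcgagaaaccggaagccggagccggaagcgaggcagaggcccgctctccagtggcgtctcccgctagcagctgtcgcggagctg
Acacb: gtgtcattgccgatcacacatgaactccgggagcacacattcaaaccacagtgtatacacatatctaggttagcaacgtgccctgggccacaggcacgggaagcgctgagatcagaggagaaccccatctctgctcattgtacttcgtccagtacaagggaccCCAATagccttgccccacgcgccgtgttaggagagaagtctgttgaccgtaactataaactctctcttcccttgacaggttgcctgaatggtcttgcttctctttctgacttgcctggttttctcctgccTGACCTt
Mlycd held CCAAT 3 times and AGGTCA 0 times, and Acacb held CCAAT 1 time and AGGTCA 1 time. The Acacb window lies inside the gene as annotated, whose first base is chr5:114146535. It too covers an internal start, and which start muscle uses was not tested. RefSeq windows were matched for 31 of the 37 genes, 36 in all. AGGTCA occurred in 19.4% of these, in windows of 7 genes (Cd36, Acsl6, Cpt1a, Acadvl, Acadm, Echs1 and Acacb), and in 16.3% of all 32851 windows. The ERR element TCAAGGTCA, which contains that half-site, occurred in 2.78% (Acsl6) against 0.423% of all windows, and the PPAR-type repeat AGGTCANAGGTCA in 0 against 0.0396%. CCAAT occurred in 50% against 37.4%, GGGCGG in 75% against 35.7%, the E-box CACGTG in 2.78% against 7.15% and the forkhead core GTAAACA in 0 against 3.65%. Both strands were read. A match of letters describes the window and is not a bound site.

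The comparison of KPC_UA with KPC asked whether ursolic acid in the chow changed these genes in tumour-bearing mice. More fold changes were negative than positive: 26 of 37 were negative, where 50.3% of all 13522 genes were, with a median of -0.18 against -0.0037 over all genes. After quantile normalisation the median was -0.082. No single gene of the 37 passed. Limma called 0 (smallest adjusted p = 0.382) and edgeR 0, where each called 0% of all genes, and DESeq2 called 0 (smallest adjusted p = 0.0594, Mlycd), where 0.538% of genes were called lower and 0.199% higher. At an unadjusted limma p under 0.05, 8 were lower and 0 higher, against 6.49% and 6.18% of all genes. The 8 were Cd36, Slc27a1, Slc25a20, Acadl, Echs1, Eci2, Acacb and Mlycd. In 7 of the 37 each KPC_UA library lay below each KPC library, against 4.14% of all genes, and in 0 each lay above, against 3.78%. The 7 were Cd36, Slc27a1, Cpt1b, Slc25a20, Etfdh, Hsd17b4 and Mlycd. Higher in KPC_UA than in KPC by value were 11 genes, led by Acsl5 at 0.36 (SE 0.25, limma adjusted p = 0.469) and Acot13 at 0.29 (SE 0.21, limma adjusted p = 0.482). Without KPC replicates 1 and 4 the median in KPC_UA against KPC was -0.17, with 9 of 37 positive and 0 called.

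In KPC_UA against Sham muscle most values were also positive. Of the 37 genes, 32 had a positive log2 fold change against Sham, where 52.1% of 13567 genes did, with a median of 0.22 against 0.0089. Limma and edgeR called 0 of them and 0% of all genes (smallest limma adjusted p of the 37 = 0.403, Slc27a1), and DESeq2 called 0, where 0.383% of genes were called higher and 0.309% lower. At an unadjusted limma p under 0.05, 5 were higher (Cd36, Slc27a1, Acadl, Eci2 and Mlycd) and 0 lower, against 3.53% and 4.41% of all genes. In 0 of the 37 each KPC_UA library lay above each Sham library and in 0 each lay below, against 2.08% and 2.02% of all genes. The median in KPC_UA against Sham was 0.10 without Sham replicate 2 and 0.34 without Sham replicate 1. By group means, KPC was highest for 27 of the 37 genes, and for 24 of these KPC_UA lay between KPC and Sham. KPC_UA was highest for 8 and Sham for 2. Since the KPC libraries enter both of the comparisons with them, these counts are a description and carry no test.

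Other genes of lipid and mitochondrial metabolism, in lists that share no gene with the 37, gave mixed values in KPC against Sham. A list of 20 other genes of mitochondrial oxidation tested also holds enzymes of acetate, propionate and amino acids, such as Acss1, Pcca and Acadsb. These examples were named after their values were seen. Of the 20 genes, 0 passed by limma and 4 rose by DESeq2, Acss1 and Acadsb included, with a median of 0.20. Among them, Ech1, an auxiliary isomerase for unsaturated chains, was at 0.74 with an SE of 0.22 (limma adjusted p = 0.107, DESeq2 adjusted p = 0.0326). Of 16 other peroxisomal genes, 0 passed by limma and 2 rose by DESeq2, with a median of -0.18. Of 20 genes of lipid supply and storage, limma called 1 higher and DESeq2 called 8 higher and 1 lower. Plin4, a coat protein of lipid droplets, was at 2.32 with an SE of 0.38 (limma adjusted p = 0.0371, DESeq2 adjusted p = 6.04e-07). Angptl4, a secreted inhibitor of lipoprotein lipase, was at 2.26 with an SE of 0.49 (limma adjusted p = 0.0571, DESeq2 adjusted p = 6.40e-05). Of 10 fasting-type PPAR targets tested, limma called 4 higher and DESeq2 5, with a median of 1.53. Pdk4, the kinase that blocks pyruvate oxidation, was at 3.09 with an SE of 0.54 (limma adjusted p = 0.0379, DESeq2 adjusted p = 2.43e-07). Of 28 regulators of these pathways, limma called 0 and DESeq2 called 3 higher and 3 lower. Klf15, a transcription factor of fasting metabolism, was at 1.78 with an SE of 0.38 (limma adjusted p = 0.0540, DESeq2 adjusted p = 9.54e-05). Foxo1, a transcription factor that insulin keeps out of the nucleus, was at 1.84 with an SE of 0.49 (limma adjusted p = 0.0901, DESeq2 adjusted p = 0.000334). Prkag3, a muscle subunit of the energy-sensing kinase AMPK, was at -2.02 with an SE of 0.54 (limma adjusted p = 0.0901, DESeq2 adjusted p = 0.0205). Lpin1 was the third that rose by DESeq2, and Rxrg and Ppargc1b fell with Prkag3, these 3 being named after their values were seen.

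Genes of mitochondrial content, which covers the citrate cycle, the respiratory chain and the outer membrane, gave other values: 6 of 15 log2 fold changes in KPC against Sham were positive, with a median of -0.038, and their summed reads were 375420.0 to 486815 normalised reads in KPC_UA, 362012 to 446209 in KPC and 347769 to 463925 in Sham libraries, with overlapping ranges. Idh2, the mitochondrial isocitrate dehydrogenase that yields NADPH, was at 1.21 with an SE of 0.24 (limma adjusted p = 0.0456, DESeq2 adjusted p = 0.000622). Of the 15, limma called 1 higher and 0 lower, and DESeq2 1 higher and 0 lower. In KPC_UA against KPC the fasting-type PPAR targets had a median of -0.75, with 0 called by limma and 3 lower by DESeq2, the lipid supply genes -0.27, and the other mitochondrial oxidation genes -0.028. Angptl4 was at -2.61 with an SE of 0.49 (limma adjusted p = 0.382, DESeq2 adjusted p = 4.75e-05). The lists were described by counts and medians only, and no difference between lists was tested.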

How the data were processed

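The authors deposited 3 tables, one per pair of groups. Per the file headers, a table gives the normalised signal of 8 libraries with the log2 fold change, the p-value and the adjusted p-value of that pair. The submitters' processing notes name Subread 1.5.2, featureCounts, bcl2fastq 2.17 and GRCm38. Aligner, annotation, use of strand and test were not given in any source used here. Within each library the deposited signal was whole multiples of one step, and 100% of values gave whole reads (tolerance 0.01). With DESeq2 1.42.0 these reads returned 100% of the log2 fold changes the authors deposited to within 0.001. Reads in listed genes numbered 22306724 to 31966610 per library.

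The test was limma 3.58.1 (R 4.3.3, trend and robust, two-sided) on log2(signal + 1) within each table, for genes with a mean of at least 10, with adjusted p under 0.05. Fold changes understate those of low genes. Levels per library use recovered reads and median-of-ratios size factors over the 13244 genes of all tables, and length is that of the principal transcript (GENCODE M21). Ratios were tested by exact permutation. DESeq2, edgeR 4.0.16 and further settings were alternatives, and the scripts were tested on simulated data. Same-numbered replicates were checked for pairing (correlations of -0.26 to 0.13) and were not treated as pairs.

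The genes and lists were chosen with earlier results of these data known. Values in every library are given for the genes called by limma, the one with the smallest p in each role and 11 always named, 20 in all. From the other lists, genes come from the 3 with the smallest p.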

Additional observations from a re-analysis of the deposited data

Results flagged for a closer look

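In 4 of 72 groups of 4 libraries examined (20 genes and 4 ratios in 3 groups each), 1 library lay farther from the other 3 than Dixon's 95% critical value allows, where chance alone gives about 1 in 20. Cd36 was at 18299.7 normalised reads in KPC replicate 1, against 8330.3 to 8675 in the other 3 KPC libraries. Hsd17b4, the peroxisomal D-bifunctional protein, was at 3414 normalised reads in the same library, against 1889 to 2124 in the other 3. Etfdh, the acceptor of electrons from the flavoprotein, was at 3798 normalised reads in KPC_UA replicate 3, against 4303 to 4359 in the other KPC_UA libraries. The log2 ratio of Acsl1 to Acsl6 was 3.26 in KPC_UA replicate 1, against 2.86 to 2.92 in the other KPC_UA libraries. KPC replicate 1 is also the library that lay farthest from the rest on the first principal component.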

How the results depend on the processing

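The median log2 fold change of the 37 genes in KPC against Sham was positive in every setting run, while the number called depended on the setting. Limma called 1 of the 37 and 160 genes in all. The count was 2 with a pseudocount of 5, 2 with TMM scaling, 3 with the length trend removed, 4 without KPC replicates 1 and 4, 2 by edgeR, 10 by DESeq2, 10 by edgeR over all 12 libraries and 10 by the authors' deposited adjusted p-values. It was 0 with a mean of at least 50 and 0 without trend and robust estimation. In every setting 0 of the 37 were called lower, so these counts also hold for both directions together. Over all genes, in both directions together, limma called 220 with a pseudocount of 5, 193 with TMM scaling and 227 with the length trend removed. It called 87 with a mean of at least 50, 150 without trend and robust estimation, 257 after quantile normalisation and 603 without KPC replicates 1 and 4. By edgeR 189 genes were called, by edgeR over all 12 libraries 1442, and by DESeq2 and the authors' deposited values 1595. Shares called higher were 0.525% with the length trend removed, 1.84% without KPC replicates 1 and 4, 0.501% by edgeR and 6.75% by DESeq2. Quantile normalisation gave the 37 genes a median of 0.21. It turned the sign of Acsl1 in KPC against Sham (-0.00077), and of Acsl1 (0.036) and Hadhb (0.025) in KPC_UA against KPC. The cause of these shifts was not tested. In KPC_UA against KPC, limma called 0 genes, and 2 without KPC replicates 1 and 4, DESeq2 100, edgeR over all 12 libraries 2 and the authors' deposited values 99. In KPC_UA against Sham, limma called 0, and DESeq2 and the authors' deposited values 94.

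With the replicate number as a block, limma called 66 genes and 0 of the 37 in KPC against Sham, and 0 genes in both other comparisons. Same-numbered samples shared a number only, so the block is no test of pairs.

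With each library left out in turn, limma called 0 to 1352 genes and 0 to 7 of the 37 in KPC against Sham, 0 to 3 genes in KPC_UA against KPC and 0 to 4 in KPC_UA against Sham. The median of the 37 ranged over 0.29 to 0.43 in KPC against Sham, -0.23 to -0.14 between KPC_UA and KPC, and 0.10 to 0.34 between KPC_UA and Sham. The sign of the fold change depended on the library left out for 7 of the 37 genes between KPC and Sham, 10 between KPC_UA and KPC, and 5 between KPC_UA and Sham. They included Cpt1a in KPC against Sham (-0.11 to 0.34) and, in KPC_UA against Sham, Acsl1 (-0.031 to 0.18), Acsl5 (-0.19 to 0.020), Acsl6 (-0.042 to 0.037) and Cpt1a (-0.36 to 0.094). Log2 ratios near 0 also crossed it. In KPC against Sham these were Acacb over Mlycd (-0.16 to 0.17) and Acsl1 over Acsl6 (-0.090 to 0.12). In KPC_UA against KPC they were Acacb over Mlycd (-0.15 to 0.20), Acsl1 over Acsl6 (-0.020 to 0.18) and Cpt1a over Cpt1b (-0.085 to 0.19). In KPC_UA against Sham they were Acacb over Mlycd (-0.17 to 0.21), Acsl1 over Acsl6 (-0.0097 to 0.19) and Hadha over Hadhb (-0.028 to 0.013). With 4 libraries a group, a median SE of 0.21 for the 37 genes in KPC against Sham and KPC libraries that differ among themselves, fold changes the size of most seen here could not be told from 0.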
